A study of Mus musculus with 8 samples.

Results

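The BCL2 family survival genes described here are 10 genes chosen by name among the 24421 genes of the deposited count table, and all 10 have a row. They are the anti-apoptotic members Bcl2, Bcl2l1 and Mcl1, the effectors Bax and Bak1, and the BH3-only members Bcl2l11, Bbc3, Pmaip1, Bmf and Bid. They were read in 8 libraries of splenic follicular regulatory T (TFR) cells, the Foxp3-expressing T cells that enter B cell follicles and restrain germinal centre responses. The 4 Blimp1-flox libraries came from mice with a floxed gene for the transcriptional repressor Blimp1 (Prdm1) and Foxp3-cre, which restricts deletion to cells that express, or have expressed, Foxp3. The 4 WT libraries came from wildtype mice. All mice had been challenged orally 2 times with peanut plus cholera toxin, and 36 days later splenic CD4+ T cells positive for Foxp3, YFP, CXCR5 and PD1 were sorted. The sources used here do not say whether WT mice also had Foxp3-cre, whether both Prdm1 alleles were floxed, how old the mice were or whether each library is a separate mouse. Every p-value below is set against the spread between libraries of 1 genotype, some of which may be technical. The comparison asks how loss of Blimp1 in these cells relates to the expression of genes that set the threshold for mitochondrial cell death.

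In the mitochondrial pathway of apoptosis, BAX and BAK open the outer mitochondrial membrane and release cytochrome c, which switches on caspases. BCL2, BCL-XL (from Bcl2l1) and MCL1 hold them in check, and BH3-only proteins either neutralise those guardians or activate BAX and BAK directly. Regulatory T cells depend on MCL1 and on IL-2 signals for survival, and BIM (from Bcl2l11) is the BH3-only protein best known for removing them. Much of the control of these proteins is exerted on the protein rather than on the transcript, and counts per gene do not separate splice forms with opposite roles, such as those of Bcl2l1.

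The libraries held 16425538 to 27595939 counts. TFR identity genes were all detected, with Cd4 at 1070 to 1352 CPM and Cxcr5 at 391 to 568 CPM over the 8 libraries. Foxp3 was at 55.7 to 75.5 CPM in Blimp1-flox cells and 72.5 to 105.0 CPM in WT cells. Ctla4 was at 800 to 960 CPM in Blimp1-flox cells and 877 to 1288 CPM in WT cells. Of the 10 identity genes listed, 5 were lower in Blimp1-flox cells, 0 passed the edgeR test and 0 had separate ranges. CPM, the level used throughout, is a gene's count scaled to the library's total after TMM, edgeR's correction for library composition. The targeted gene Prdm1 lay at 7.53 to 16.6 CPM in Blimp1-flox cells and at 31.8 to 71.0 CPM in WT cells. Of 15 B cell markers none passed the edgeR test, but 14 were lower in Blimp1-flox cells, 14 were highest in WT 4 and 10 had no overlap between the genotypes, beside 8.47% of all tested genes without overlap. Their summed level was 217 to 293 CPM in Blimp1-flox cells and 261 to 957 CPM in WT cells. Cd22 alone was at 167 to 240 CPM over the 8 libraries. The B cell gene Fcer2a was at 0 in Blimp1-flox 4 and above 0 in the other libraries. Summed CD8 and NK cell markers were at 49.3 to 51.3 CPM in Blimp1-flox cells and at 27.9 to 44.9 CPM in WT cells, a sum carried by Klrb1c and Cd8b1. In the same list Klra8 was at 0 in all libraries, Ncr1 was at 0 in all Blimp1-flox libraries and at 0 to 0.112 CPM in WT cells, and Cd8a was at 0 to 0.0416 CPM in Blimp1-flox cells and 0.0404 to 0.351 CPM in WT cells. Summed myeloid markers were at 114, 48.4, 26.7 and 104 CPM in Blimp1-flox 1 to 4 and at 33.7 to 50.9 CPM in WT cells. Pancreas transcripts summed to 12.0 to 46.8 CPM in Blimp1-flox cells and 1.27 to 30.2 CPM in WT cells. Of 9 tested myeloid markers 0 were lower in Blimp1-flox cells, and of 9 tested pancreas transcripts also 0. None of either list passed the edgeR test. Plasma cell markers summed to 274 to 380 CPM in Blimp1-flox cells and 287 to 357 CPM in WT cells, mostly from Xbp1. Of these genes Sdc1 alone passed the edgeR test, at 3.20 to 6.93 CPM in Blimp1-flox cells and 0.922 to 2.22 CPM in WT cells. Jchain, in the same list, was at 62.6, 37.2, 7.19 and 81.4 CPM in Blimp1-flox 1 to 4 and at 13.6 to 26.2 CPM in WT cells. B cells also express BCL2 family genes, and the part of RNA from any of these cell types in the values below was not tested. Log2 fold changes without WT 4, where B cell genes were highest, are given beside each member. In bulk RNA a smaller share of cells of one type cannot be told apart from less RNA per cell.

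None of the 10 members passed the test for a difference between the genotypes. In edgeR's quasi-likelihood test with Benjamini-Hochberg adjustment over all 12363 genes that passed the filter on low counts, 0 of 10 passed an adjusted p of 0.05, against 0.501% of all tested genes (62 genes). At an unadjusted p under 0.05 there was 1 member, Bcl2l1, against 16.2% of all tested genes. DESeq2 called 0 of 10, with a lowest adjusted p of 0.209, where it called 3.66% of all genes. limma-voom with quality weights called 0 of 10, with a lowest adjusted p of 0.0851, where it called 4% of all genes. The number at an unadjusted p under 0.05 depended on the method. It was 2 of 10 with DESeq2, beside 2123 of the 12363 genes. With limma-voom it was 4 of 10, beside 2938 of the 12363 genes. No member had separate ranges in Blimp1-flox and WT libraries, as 8.47% of all tested genes did. All 10 members passed the filter on low counts, with 51 counts or more in each library.

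What the data do give is a set of bounds. Log2 fold changes ran from -0.23 for Bcl2l1 to 0.26 for Bbc3, with 6 positive and 4 negative and a median of 0.023, beside a median of 0.0012 over all tested genes. The median size of the log2 fold change, without its sign, was 0.12 for the members and 0.17 for all tested genes. For 8 of the 10 members the 95% interval of the fold change lay inside 1.5-fold in either direction, as it did for 59.5% of all tested genes. The exceptions were Bak1 and Bmf, which had the fewest counts.

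**Figure D1:**
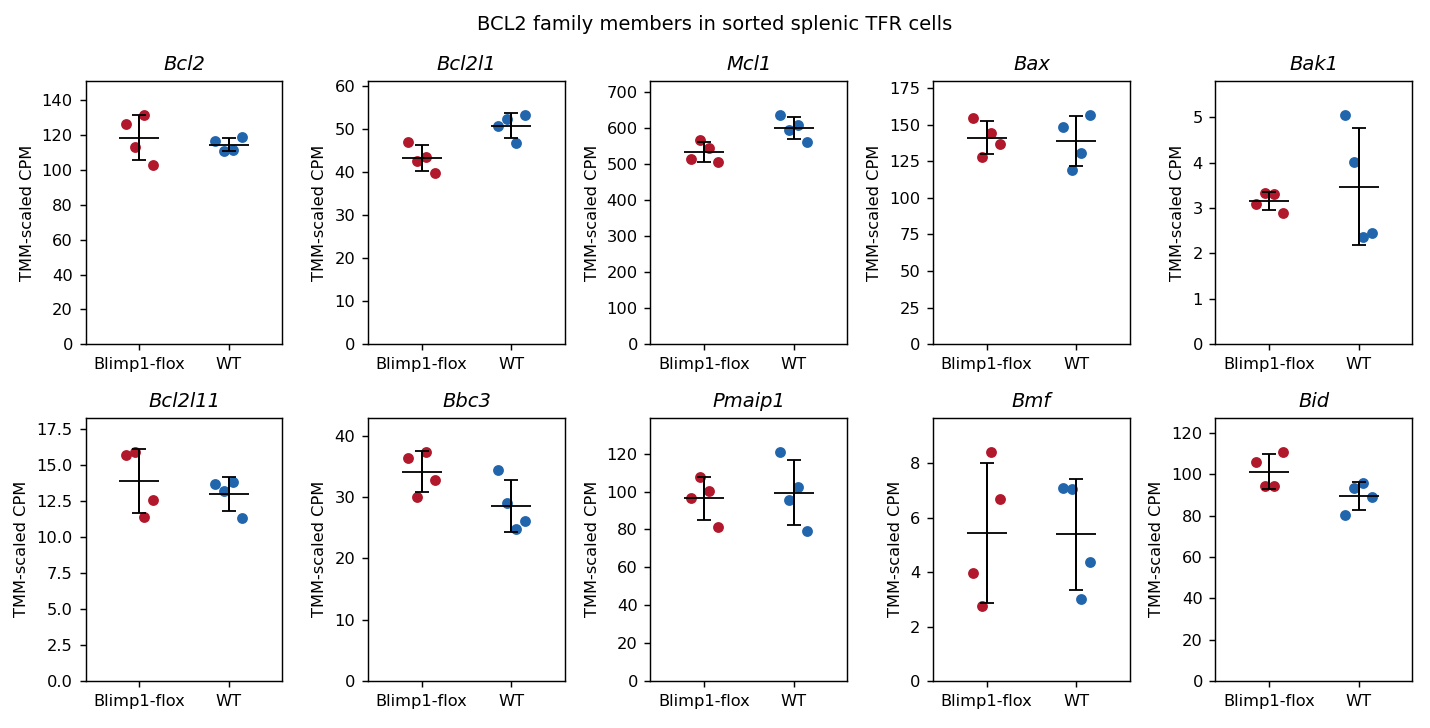
TMM-scaled CPM of each BCL2 family member in 4 Blimp1-flox (red) and 4 WT (blue) libraries. Points are libraries, the horizontal mark is the mean and the bar 1 SD. The ranges of the genotypes overlap in all 10 panels, by the least relative to the gene's level in Bcl2l1 and Mcl1.

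**Figure D2:**
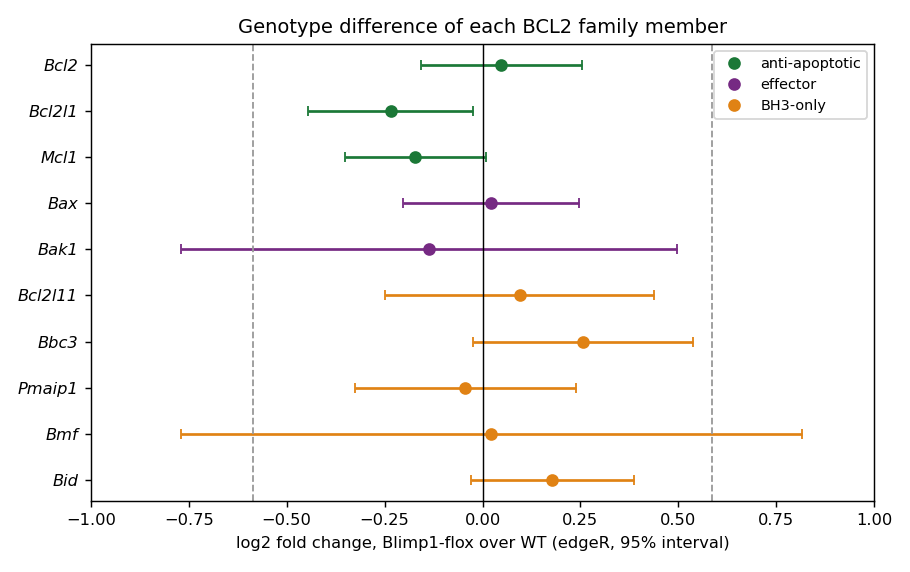
Log2 fold change of each member, Blimp1-flox over WT, with the 95% interval from edgeR, and dashed lines at 1.5-fold. The interval of Bcl2l1 ends at -0.025, and those of Bak1 and Bmf cross a dashed line.

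Among the anti-apoptotic members, Bcl2l1 and Mcl1 had lower means in Blimp1-flox cells and Bcl2 did not. Bcl2l1 encodes BCL-XL, a guardian that binds both BH3-only proteins and effectors. It was at 47.1, 42.7, 43.6 and 39.7 CPM in Blimp1-flox 1 to 4, against 50.9, 52.5, 46.9 and 53.3 CPM in WT 1 to 4. Blimp1-flox 1 lay just above WT 3, and the remaining libraries lay on separate sides. The means were 43.3 ± 3.05 CPM in Blimp1-flox cells and 50.9 ± 2.86 CPM in WT cells (SD, n = 4 each), and the log2 fold change was -0.23 ± 0.097 (SE; edgeR adjusted p = 0.266). The 95% interval ran from 0.735-fold to 0.983-fold. Bcl2l1 ranked 1452 of 12363 by p, and its log2 fold change without WT 4 was -0.21 (edgeR adjusted p = 0.415, and 0.107 to 0.569 over all alternatives tried). The gene lies on the minus strand at chr2:152758732-152831728 (mm10, from the deposited gene models). No exon of any member overlaps an exon of another gene in the table.

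Mcl1 encodes the short-lived guardian that blocks BAK and BIM and that lymphocytes lose quickly when survival signals stop. It was at 516, 567, 546 and 505 CPM in Blimp1-flox 1 to 4, against 636, 597, 609 and 563 CPM in WT 1 to 4. Only WT 4 lay within the Blimp1-flox range, below Blimp1-flox 2, and the other WT libraries were above all Blimp1-flox libraries. The means were 534 ± 28.2 CPM in Blimp1-flox cells and 601 ± 30.3 CPM in WT cells (SD, n = 4 each), with a log2 fold change of -0.17 that did not pass (SE 0.083, edgeR adjusted p = 0.331). Its 95% interval ran from 0.784-fold to 1.01-fold. Without WT 4 the log2 fold change was -0.20 (edgeR adjusted p = 0.357, and 0.0851 to 0.633 over all alternatives tried). Mcl1, at chr3:95658721-95663178 on the plus strand, was the member with the smallest spread, with a within-genotype SD of 0.075 on the log2 scale.

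Bcl2 is the founding guardian and a known survival gene of resting T cells. It was at 126, 113, 131 and 103 CPM in Blimp1-flox 1 to 4, against 117, 111, 112 and 119 CPM in WT 1 to 4. The Blimp1-flox libraries lay on both sides of the narrow WT range. The means were 119 ± 12.8 CPM in Blimp1-flox cells and 115 ± 3.80 CPM in WT cells (SD, n = 4 each), and the log2 fold change was 0.048 ± 0.095 (SE; edgeR adjusted p = 0.840). The 95% interval ran from 0.897-fold to 1.19-fold. Without WT 4 the log2 value was 0.066. Bcl2 lies on the minus strand at chr1:106538178-106714290.

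The Mcl1 promoter is shown because it holds a match to GNGAAAG, the pattern searched here for the Blimp1 core. Mcl1 was also the most abundant of Bcl2, Bcl2l1 and Mcl1. The 250 bases before the gene start were taken from RefSeq (GRCm38.p6, the assembly of mm10), with the match in capitals. It lies on the other strand, with its first printed base 14 bases before the start.
Mcl1, chr3:95658471-95658720, plus strand: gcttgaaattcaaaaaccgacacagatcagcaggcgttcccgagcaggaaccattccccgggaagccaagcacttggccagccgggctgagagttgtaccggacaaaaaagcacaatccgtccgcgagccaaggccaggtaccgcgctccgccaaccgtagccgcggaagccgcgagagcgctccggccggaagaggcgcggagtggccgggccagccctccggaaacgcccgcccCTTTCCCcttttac
A promoter window was found for 9 of 10 members, 16 windows in all. GNGAAAG was searched on both strands and stood in 2 of the 16, 1 of Mcl1 and 1 of Bmf, and in 19.4% of all 32851 promoter windows. N is any base, and the matched bases were CTTTCCC in Mcl1 as printed and GGGAAAG in Bmf. A stricter form of the Blimp1 site was not searched. A match is a description of the letters, and binding was not measured here.

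The effectors, whose proteins form the pores in the outer mitochondrial membrane, did not pass the test. Bax (chr7:45461695-45466898, minus strand) was at 154, 128, 145 and 137 CPM in Blimp1-flox 1 to 4, against 149, 119, 131 and 156 CPM in WT 1 to 4. The ranges lay across each other, with the WT libraries holding both the lowest and the highest value. The log2 fold change of Bax was 0.022 ± 0.104 (SE; edgeR adjusted p = 0.937), with a 95% interval from 0.869-fold to 1.19-fold. This log2 fold change was 0.084 without WT 4. Bak1 (chr17:27019812-27028626, minus strand) was at 3.10, 3.33, 3.31 and 2.90 CPM in Blimp1-flox 1 to 4, against 5.05, 4.02, 2.37 and 2.46 CPM in WT 1 to 4. The Blimp1-flox values sat close together, while WT 1 and WT 2 were above all of them and WT 3 and WT 4 below. These levels rest on 51 to 125 counts a library. The log2 fold change of Bak1 was -0.14 ± 0.29 (SE; edgeR adjusted p = 0.856), and the 95% interval, 0.587-fold to 1.41-fold, leaves room for a larger difference than for most other members. The log2 value was -0.27 without WT 4.

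Of the BH3-only members, Bbc3 and Bid had higher means in Blimp1-flox cells, and none of the 5 passed the test. The log2 fold changes of Bcl2l11, Pmaip1 and Bmf were smaller than their standard errors. Bbc3 encodes PUMA, a broad BH3-only protein that p53 and FOXO factors are known to induce. It was at 36.3, 30.1, 37.3 and 32.8 CPM in Blimp1-flox 1 to 4, against 34.3, 29.0, 24.8 and 26.0 CPM in WT 1 to 4. WT 1 lay among the Blimp1-flox libraries and the other WT libraries were below all of them. The means were 34.1 ± 3.33 CPM in Blimp1-flox cells and 28.6 ± 4.24 CPM in WT cells (SD, n = 4 each). The log2 fold change was 0.26 ± 0.13 (SE; edgeR adjusted p = 0.353), with a 95% interval from 0.983-fold to 1.45-fold. Without WT 4 it was 0.21, and 0.17 without WT 4 and Blimp1-flox 3 together. Bbc3 lies on the plus strand at chr7:16309583-16318334.

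Bid links death receptors to the mitochondrion, since caspase-8 cuts its protein into an active form. It was at 106, 94.3, 94.3 and 111 CPM in Blimp1-flox 1 to 4, against 80.3, 93.2, 95.7 and 88.9 CPM in WT 1 to 4. WT 3 was the 1 WT library inside the Blimp1-flox range. The means were 101 ± 8.35 CPM in Blimp1-flox cells and 89.5 ± 6.75 CPM in WT cells (SD, n = 4 each), with a log2 fold change of 0.18 that did not pass (SE 0.096, edgeR adjusted p = 0.382). The 95% interval ran from 0.980-fold to 1.31-fold. Leaving out WT 4 gave Bid a log2 fold change of 0.17. It was 0.16 without Blimp1-flox 1 and 0.13 without Blimp1-flox 4, the libraries with the highest myeloid sums. The gene lies on the minus strand at chr6:120893119-120916820.

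Bcl2l11 encodes BIM, the activator that binds all guardians. It was at 15.7, 15.9, 11.4 and 12.6 CPM in Blimp1-flox 1 to 4, against 13.7, 13.2, 13.9 and 11.3 CPM in WT 1 to 4. Blimp1-flox 1 and 2 were above every WT library and Blimp1-flox 3 and 4 were below WT 1, 2 and 3. The log2 fold change was 0.095 ± 0.159 (SE; edgeR adjusted p = 0.805), with a 95% interval from 0.841-fold to 1.36-fold. Leaving out WT 4 gave a log2 fold change of 0.031. Bcl2l11 lies on the plus strand at chr2:128126038-128162547.

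Pmaip1 encodes NOXA, which binds MCL1 and promotes its degradation. It was at 96.4, 108, 100.2 and 81.2 CPM in Blimp1-flox 1 to 4, against 121, 95.3, 102 and 79.1 CPM in WT 1 to 4. The Blimp1-flox range lay inside the WT range. The log2 fold change was -0.044 ± 0.130 (SE; edgeR adjusted p = 0.900), with a 95% interval from 0.798-fold to 1.18-fold. Without WT 4 the log2 value was -0.14. Bmf, a BH3-only protein tied to detachment and cytoskeletal stress, was at 3.95, 2.74, 8.42 and 6.69 CPM in Blimp1-flox 1 to 4, against 7.10, 7.04, 3.03 and 4.37 CPM in WT 1 to 4. Each genotype held both low and high libraries. Bmf had the widest spread of the members, with a within-genotype SD of 0.67 on the log2 scale. Its log2 fold change was 0.023 ± 0.366 (SE; edgeR adjusted p = 0.981), and its 95% interval ran from 0.586-fold to 1.76-fold. Without WT 4 the log2 fold change had the other sign, at -0.065. Bmf lies on the minus strand at chr2:118528757-118549678.

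The promoters of Bcl2l11 and Bbc3 are shown because both genes are known targets of FOXO factors, and each holds the FOXO motif GTAAACA, in capitals. In Bcl2l11 the match is on the gene's strand, with its first base 227 bases before the start. In Bbc3 it is on the other strand, with its first printed base 167 bases before the start. That start lies inside the deposited gene model, whose first base is at chr7:16309583.
Bcl2l11, chr2:128125788-128126037, plus strand: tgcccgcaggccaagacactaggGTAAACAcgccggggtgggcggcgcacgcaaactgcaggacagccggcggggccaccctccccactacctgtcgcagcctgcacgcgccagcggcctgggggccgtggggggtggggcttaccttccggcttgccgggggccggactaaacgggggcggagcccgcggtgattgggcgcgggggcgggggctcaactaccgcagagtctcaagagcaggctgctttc
Bbc3, chr7:16310011-16310260, plus strand: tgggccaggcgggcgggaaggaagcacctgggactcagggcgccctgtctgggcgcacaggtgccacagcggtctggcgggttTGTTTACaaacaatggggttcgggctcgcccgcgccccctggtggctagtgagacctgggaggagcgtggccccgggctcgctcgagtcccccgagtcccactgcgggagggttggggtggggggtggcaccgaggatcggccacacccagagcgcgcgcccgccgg
GTAAACA was searched on both strands and stood in 2 of the 16 member windows and in 3.17% of all windows. The STAT5 motif TTCNNNGAA was in 0 of 16 member windows and in 7.02% of all windows. No printed window held more than 1 of these motifs. Foxo3, which encodes one such factor, had a log2 fold change of 0.95 ± 0.32 (SE) and did not pass (edgeR adjusted p = 0.186). It was at 4.56, 8.82, 5.18 and 5.50 CPM in Blimp1-flox 1 to 4, against 4.60, 2.98, 3.16 and 1.72 CPM in WT 1 to 4, so WT 1 lay just above Blimp1-flox 1. Foxo1, the far more abundant FOXO gene, was at 363 to 442 CPM in Blimp1-flox cells and 408 to 609 CPM in WT cells, with a log2 fold change of -0.25 that did not pass either (edgeR adjusted p = 0.361).

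Levels of different members can be set side by side per kilobase of exon, on which scale the 10 members formed 4 tiers. Mcl1 and Bax stood at the top. Mcl1 averaged 153 ± 8.08 CPM per kilobase in Blimp1-flox cells and 172 ± 8.70 in WT cells (SD, n = 4 each), and Bax 162 ± 12.9 in Blimp1-flox cells and 160 ± 19.4 in WT cells. Their order was not fixed, since Mcl1 was above Bax in 4 of 8 libraries. Both were above 96.4% of tested genes, to the same rounding.

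Bid and Pmaip1 formed the next tier. Bid averaged 53.6 CPM per kilobase in Blimp1-flox cells and 47.3 in WT cells, and Pmaip1 36.3 in Blimp1-flox cells and 37.5 in WT cells. Bid was above Pmaip1 in 7 of 8 libraries, with overlapping ranges. Bbc3, Bcl2 and Bcl2l1 followed at 12.4 to 18.9 CPM per kilobase over all libraries, and their ranges overlapped. Bcl2l11, Bak1 and Bmf were lowest, at 0.592 to 2.52 CPM per kilobase, again with overlapping ranges. Between tiers the ranges were separate in all 8 libraries, and the step from Bcl2l1 to Bcl2l11 was 7.81-fold. The summed exon length joins all transcript forms, so genes with several long forms are understated on this scale.

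**Figure D3:**
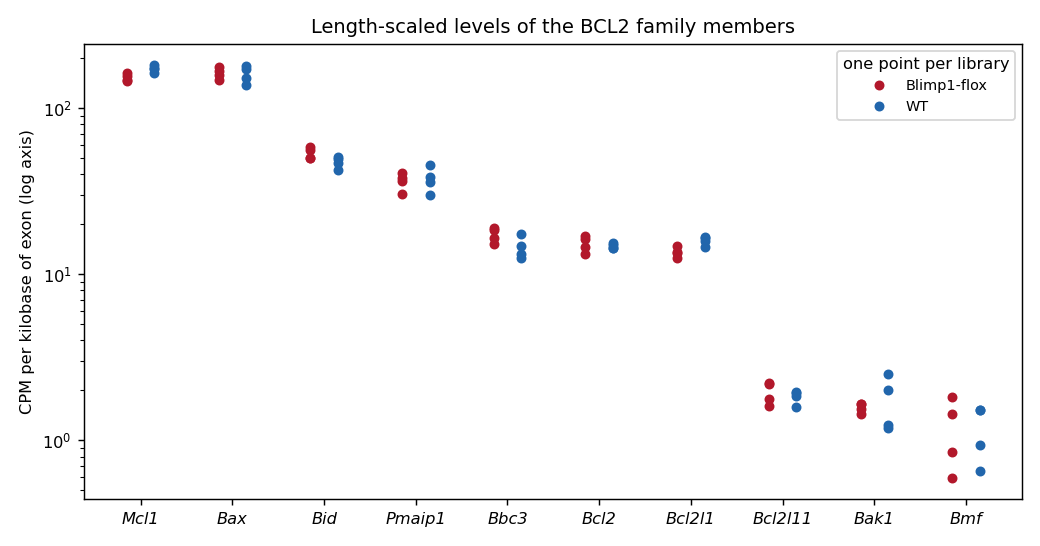
CPM per kilobase of exon of each member on a log axis, in the order of the mean over 8 libraries, with Blimp1-flox (red) left of WT (blue) and 1 point a library. The steps below Bax, Pmaip1 and Bcl2l1 separate all libraries, and within a tier the ranges overlap.

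Per kilobase, the 3 anti-apoptotic members made up 39.9% ± 1.99 of the 10 members' summed level in Blimp1-flox cells and 43.5% ± 1.73 in WT cells (SD, n = 4 each). The 5 BH3-only members made up 24.2% ± 0.500 in Blimp1-flox cells and 21.9% ± 1.51 in WT cells. The effectors made up 35.9% ± 1.95 in Blimp1-flox cells and 34.5% ± 3.21 in WT cells, nearly all of it Bax. The sum of the 10 members was 456 ± 15.3 CPM per kilobase in Blimp1-flox cells and 467 ± 21.6 in WT cells. It leaves out other BCL2 family genes, among them Bcl2a1b at 215 to 259 CPM per kilobase over the 8 libraries. These shares are therefore not those of the whole BCL2 family.

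Ratios within a library do not depend on its scaling, and 10 were computed per kilobase after the members' values were known, so they carry no test. The summed BH3-only level over the summed anti-apoptotic level was 0.635, 0.570, 0.587 and 0.639 in Blimp1-flox 1 to 4, against 0.510, 0.511, 0.512 and 0.478 in WT 1 to 4. All Blimp1-flox libraries were above all WT libraries, with means of 0.608 ± 0.0346 in Blimp1-flox cells and 0.503 ± 0.0165 in WT cells (SD, n = 4 each). The abundant Mcl1, Bid and Pmaip1 dominate these sums, which leave out the other BCL2 family genes. Mcl1 and Bcl2l1 already had lower means in Blimp1-flox cells, and Bid and Bbc3 higher ones. The ratio of these sums was therefore likely to separate. No share over sums of other genes was computed, so the separation is a description only.

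The ratio of Bcl2l1 to Bbc3 was 0.722 to 0.878 in Blimp1-flox cells and 0.916 to 1.27 in WT cells, with no overlap. That of Bcl2l1 to Bcl2 was 0.803 to 0.935 in Blimp1-flox cells and 1.02 to 1.14 in WT cells, again with no overlap. The other 7 ratios overlapped between the genotypes. Bcl2l1 and Bbc3 had the lowest and the highest log2 fold change of the members, so their ratio was likely to separate. No share over ratios of other gene pairs was computed. Mcl1 over Bcl2l11, the guardian against the activator, was 67.3, 72.8, 97.8 and 82.0 in Blimp1-flox 1 to 4, against 95.1, 92.4, 89.8 and 102 in WT 1 to 4. Blimp1-flox 3 stood among the WT libraries and the other Blimp1-flox libraries were below them. Bcl2 over Bax averaged 0.0944 ± 0.00797 in Blimp1-flox cells and 0.0935 ± 0.00868 in WT cells (SD, n = 4 each), a difference much smaller than either spread.

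**Figure D4:**
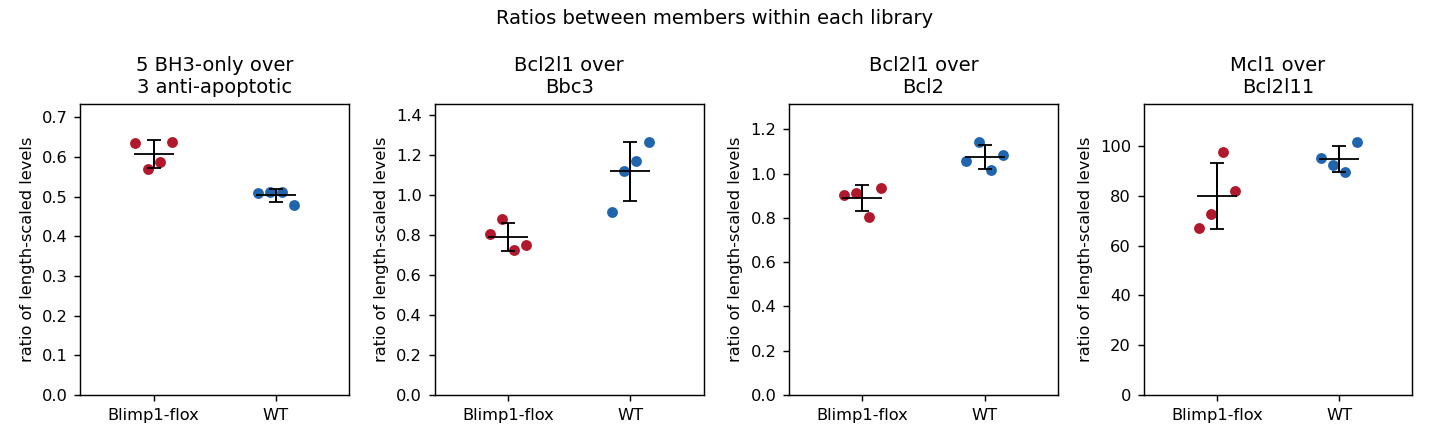
Ratios of length-scaled levels within each library, for 4 of the 10 pairs computed, in Blimp1-flox (red) and WT (blue) libraries. Points are libraries, the mark is the mean and the bar 1 SD. The ratios were computed after the members' values were known. The genotypes are separate in the first 3 panels and overlap for Mcl1 over Bcl2l11, where Blimp1-flox 3 is at 97.8.

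Libraries were not uniformly high or low over the family. Blimp1-flox 3 and WT 1 each held the highest value of 3 members, and Blimp1-flox 4 held the lowest value of 3 members. Blimp1-flox 1, the library with the fewest counts, held neither the highest nor the lowest value of any member. The genes whose profile over the 8 libraries was closest to that of Bcl2l1, the member with the lowest p, were Ldb1, Bckdhb and Secisbp2. Their root mean square differences from Bcl2l1 in centred log2 CPM were 0.035, 0.050 and 0.050, the smallest among 12362 other tested genes. Ldb1 was at 156 to 179 CPM in Blimp1-flox cells and 182 to 215 CPM in WT cells, with a log2 fold change of -0.22 that did not pass (edgeR adjusted p = 0.258).

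Around the family, 68 other genes of the mitochondrial pathway and its controls were listed, and 65 were tested. Of these 65, 1 fell, none rose and 64 did not pass in edgeR, against 0.501% of all tested genes called. Their median log2 fold change was -0.014. At an unadjusted p under 0.05 there were 18 of 65, 9 positive and 9 negative, beside 16.2% of all tested genes. The genotypes did not overlap in 6 of 65, a share near the 8.47% of all tested genes. Bcl2l10, Bok and Hrk had 6 counts or fewer in each library and were not tested.

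The gene that fell was Il2ra (CD25), which gives the IL-2 receptor its high affinity and whose signals through STAT5 are known to sustain Bcl2 and Mcl1. It was at 28.5, 43.8, 55.4 and 28.1 CPM in Blimp1-flox 1 to 4, against 81.3, 119, 89.7 and 121 CPM in WT 1 to 4. All WT libraries were above all Blimp1-flox libraries, and the log2 fold change was -1.39 ± 0.23 (SE; edgeR adjusted p = 0.0311). It did not pass when Blimp1-flox 1, 2 or 4 or WT 2 was left out (edgeR adjusted p of 0.101, 0.0564, 0.0599 and 0.105 in that order). The other chains of the receptor had log2 fold changes of -0.018 (Il2rb) and -0.12 (Il2rg), and the transducers Stat5a and Stat5b of 0.099 and 0.069. None of these passed (edgeR adjusted p from 0.549 to 0.944).

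Among genes that did not pass, Tnfrsf1b and Birc5 had the lowest p with Foxo3. Tnfrsf1b encodes TNF receptor 2, a survival receptor of regulatory T cells. It was at 582, 688, 465 and 606 CPM in Blimp1-flox 1 to 4, against 757, 848, 889 and 867 CPM in WT 1 to 4, with no overlap. Its log2 fold change was -0.52 ± 0.12 (SE; edgeR adjusted p = 0.0703), but 3 of 17 alternatives called it. These were DESeq2 (adjusted p = 0.0022), limma-voom (adjusted p = 0.0121) and edgeR with no filter (adjusted p = 0.0419), and over all 17 the adjusted p reached 0.236. Birc5 encodes survivin, which serves mitosis as well as survival. It was at 26.2, 22.4, 45.7 and 37.2 CPM in Blimp1-flox 1 to 4, against 17.4, 14.2, 18.7 and 25.6 CPM in WT 1 to 4, where WT 4 lay above Blimp1-flox 2. The log2 fold change of Birc5 was 0.79 ± 0.23 (SE; edgeR adjusted p = 0.155), and 2 of 17 alternatives called it, DESeq2 (adjusted p = 0.0225) and limma-voom (adjusted p = 0.0356). Over all 17 its adjusted p reached 0.418.

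By list, 0 of 14 other BCL2 family genes passed in edgeR, with 9 positive, 5 negative and a median log2 fold change of 0.091. Bcl2a1a, Bcl2a1b and Bcl2a1d are near-identical copies whose reads cannot be assigned with certainty. None of 16 apoptosome and caspase genes passed (11 positive, 5 negative, median 0.086), and none of 5 inhibitors of apoptosis (2 positive, 3 negative, median -0.22). None of 10 genes listed for the death receptor pathway to Bid passed, with 1 positive, 9 negative and a median of -0.081. That list also holds Tnfrsf1b, named above as a survival receptor. The 20 regulators of BCL2 family expression or protein turnover held Il2ra as the 1 called gene, with 7 positive, 13 negative and a median of -0.094. At an unadjusted p under 0.05, which 16.2% of all tested genes reached, these 5 lists held 4, 3, 3, 3 and 5 genes in the order given.

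**Figure D5:**
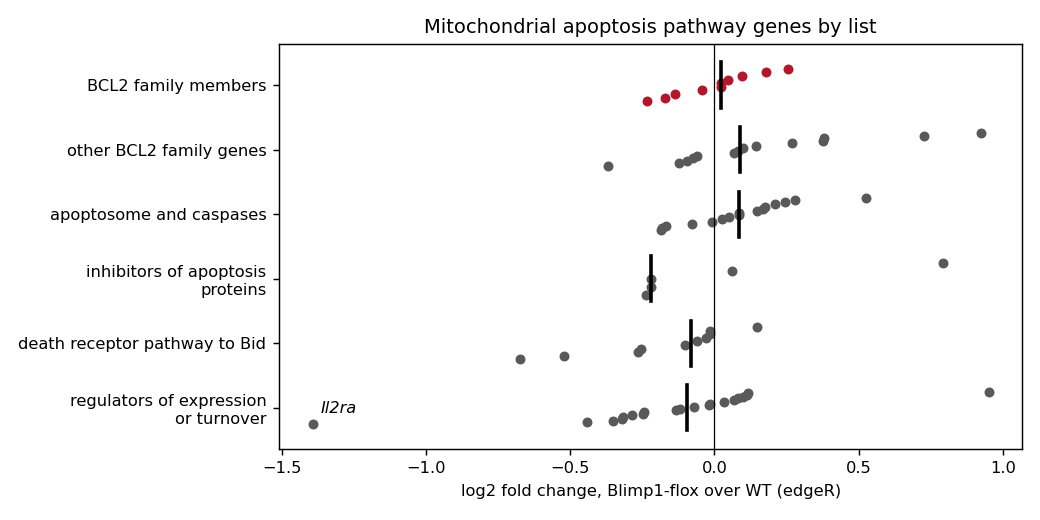
Log2 fold change, Blimp1-flox over WT, of the 10 members (red) and of the tested genes of 5 surrounding lists (grey), 1 point a gene, with a bar at each list's median. The members span -0.23 to 0.26, and Il2ra stands apart at -1.39.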

How the data were processed

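RNA of 4 Blimp1-flox and 4 WT TFR libraries was made into KAPA mRNA libraries, per the labels' protocols. The authors aligned reads with STAR 2.5.2b to mm10 and counted them per gene using featureCounts (Subread 1.5.1), according to the submitters' processing notes. The table they deposited holds raw counts, with each gene's summed exon length in bases. The annotation and the strand setting are not given in the sources used here.

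Genes passing filterByExpr (12363) were scaled by TMM and tested with edgeR 4.0.16 in R 4.3.3 (glmQLFit, robust, genotype alone), adjusted by Benjamini-Hochberg and called under 0.05. Standard errors and 95% intervals were derived from the F statistic. The fit was tested on simulated data. Replicate libraries differed by far more than counting noise, with a mean chi-square per gene of at least 16.6 in every pair. CPM per kilobase was computed from the counts and lengths.

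The members and gene lists were chosen with earlier results of these data known. All 10 members are named whatever their result. Of the other pathway genes, those called and the 3 with the lowest p among the rest are named by rule. Foxo1, Il2rb, Il2rg, Stat5a, Stat5b, the Bcl2a1 copies, the untested genes and the marker genes were named after their values were seen. For the member with the lowest p, the 3 genes closest in profile are named. Alternatives used other scaling, DESeq2 1.42.0, limma-voom 3.58.1, other filters, a replicate block and libraries left out.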

Additional observations from a re-analysis of the deposited data

How the results depend on the processing

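No member passed an adjusted p of 0.05 in any of 17 alternatives (lowest adjusted p 0.0851). Bcl2l1, Mcl1, Bbc3 and Bid kept their direction in all of them, with log2 fold changes of -0.28 to -0.20, -0.22 to -0.14, 0.17 to 0.36 and 0.13 to 0.21. The other 6 members changed sign at least once. With limma-voom Bcl2 was at -0.039 and Bcl2l11 at -0.0041. Bmf was at -0.024 with the replicate block and at -0.36 without WT 4 and Blimp1-flox 3 together. With 1 library left out, Bcl2 ran from -0.0048 to 0.11, Bcl2l11 from 0.019 to 0.18, Bax from -0.043 to 0.084, Bak1 from -0.28 to 0.0996, Pmaip1 from -0.14 to 0.063 and Bmf from -0.27 to 0.24. Over all genes, 62 calls became 453 with DESeq2, 494 with limma-voom, 157 without WT 4 and Blimp1-flox 3 together, 182 at an adjusted p under 0.1, and 20 to 127 with 1 library left out. It was 20 without Blimp1-flox 1, 23 without Blimp1-flox 4, 27 without WT 2, 94 without Blimp1-flox 3 and 127 without WT 1. The 1 call among the other pathway genes became 3 with DESeq2, 3 with limma-voom, 2 with no filter, 2 at an adjusted p under 0.1, and 0 to 1 with 1 library left out. The cause was not tested.

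With the replicate block 52 genes, 0 members and 1 other pathway gene were called. Deviations of same-numbered libraries correlated at -0.108 to 0.153, and not every library correlated best with its own number, so the numbers were not taken as pairs. Depth limits Bak1 and Bmf most, at 51 to 125 and 65 to 234 counts a library.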
